A study of Mus musculus with 6 samples.

Results

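Gh is the gene for growth hormone, a small protein hormone of the anterior pituitary. It was 1 of the 31053 gene features counted in single cells of mouse pancreatic lymph nodes, and it was chosen by its measured UMI level, which had been seen to differ between the 2 genotypes in these same cells. Its levels between genotypes, gates and cell states are therefore given as descriptions, with no test. The question of the study was what a gene does inside T cells with regard to autoimmunity. All 6 mice carried a floxed gene, that is, a gene flanked by the sites that Cre recombinase cuts. In 3 of them the CD4-Cre transgene was also present (Cre-positive 1 to 3), and in the other 3 it was not (Cre-negative 1 to 3). CD4-Cre is driven by Cd4 control elements, which are active in developing thymocytes before CD4 and CD8 T cells part, so both lineages can lose the floxed DNA. The labels give no strain, sex, age or founder of the transgene, and each library is 1 mouse.

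Growth hormone is made by the somatotroph cells of the pituitary under the transcription factor Pou1f1 and the releasing hormone Ghrh. It acts through its receptor Ghr, the kinase Jak2 and Stat5a and Stat5b, and induces Igf1 in liver and feedback inhibitors such as Socs2 and Cish. Lymphocytes are not a classical source of the hormone. Growth hormone gene sequence is also a building block of some transgenes, where it serves as an intron and polyadenylation signal, and the labels do not give the construct used here.

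The droplet libraries held 47149014 to 61321105 unique molecular identifiers (UMIs, each standing for 1 captured RNA molecule). After filtering, 51625 cells remained, 6793 to 9501 per mouse, with a median of 4234 to 5592 UMIs. Any 2 libraries shared 11 to 31 cell barcodes. Cells were sorted by their own UMIs into gates. Conventional Cd4 T cells had a Cd3 UMI, a Cd4 UMI and no Cd8 or Foxp3 UMI, regulatory cells also had a Foxp3 UMI, and CD8 T cells had a Cd8b1 UMI and no Cd4 UMI. Other T cells had neither Cd4 nor Cd8 UMIs, B cells had a Cd79a UMI and no Cd3 UMI, and myeloid cells had at least 2 UMIs of myeloid genes. Cells that had UMIs of gate genes but met no gate made up 32.2% to 39.5% of a library. Of these, 87.1% to 91.2% had a UMI of Cst3, a myeloid gene of the gate that was also found in lymphocytes. Such ungated cells held 249 Gh UMIs in Cre-positive mice, which is 29.4% of all Gh UMIs of that genotype. In Cre-negative mice they held 29 Gh UMIs, which is 70.7% of all Gh UMIs of that genotype. Levels given by gate leave these molecules out, and with them most Gh UMIs of Cre-negative mice.

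In the mouse reference (GRCm38, equal to mm10) Gh lies on the minus strand of chromosome 11, at chr11:106300271-106301865. It has 5 exons and a coding length of 651 bases. The coding part of its last exon, chr11:106300366-106300566, is shown as the protein-coding stretch nearest to the poly(A) tail from which the RNA was captured. It was taken from the GENCODE M21 transcripts, runs 5′ to 3′ on the transcript strand, and has the stop codon in capitals.
Gh, coding part of the last exon: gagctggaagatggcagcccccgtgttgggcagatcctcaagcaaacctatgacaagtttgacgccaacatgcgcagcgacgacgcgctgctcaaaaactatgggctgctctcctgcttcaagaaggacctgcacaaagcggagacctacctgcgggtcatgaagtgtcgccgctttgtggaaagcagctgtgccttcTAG
The deposited values are UMI counts per gene and hold no read sequence. Molecules made from the chromosomal gene and molecules made from growth hormone sequence placed elsewhere therefore cannot be told apart. The transgene itself and the loss of the floxed DNA also came together in every Cre-positive mouse, and their parts cannot be told apart either.

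Over all cells, Gh had 199, 318 and 330 UMIs in Cre-positive mice 1, 2 and 3, against 16, 10 and 15 UMIs in Cre-negative mice 1, 2 and 3. These UMIs lay in 815 of 27795 Cre-positive cells and in 35 of 23830 Cre-negative cells. Every Cre-positive mouse was above every Cre-negative mouse. Nearly all positive cells held a single molecule, since 785 of the 815 Cre-positive cells had 1 Gh UMI, 28 had 2 and 2 had 3. The cells carrying the transcript were of different kinds in the 2 genotypes. Among the 815 Cre-positive cells with Gh, 719 had a Cd3 UMI and no UMI of the B cell receptor genes Cd79a and Cd79b. Among the 35 Cre-negative cells with Gh, 32 had a Cd79a or Cd79b UMI and 2 had Cd3 without either.

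Conventional Cd4 T cells held the highest Gh level of the 6 gates in Cre-positive mice. The level was 9.90, 12.7 and 14.9 CPM (Gh UMIs scaled to counts per 1000000 UMIs of the gate) in Cre-positive mice 1, 2 and 3, against 0 in each of the 3 Cre-negative mice. The groups did not overlap, and mouse 1 was the lowest of the Cre-positive mice. A Gh UMI was found in 4.38%, 6.48% and 7.98% of these cells in Cre-positive mice 1, 2 and 3, with exact 95% intervals (Clopper-Pearson) of 3.46% to 5.47%, 5.45% to 7.63% and 6.73% to 9.37%. In Cre-negative mice it was found in 0 of 5009 cells (exact 95% interval 0% to 0.0736%, mice pooled). Intervals and limits cover counting error only. A limit of 3 UMIs over the Cre-negative group corresponds to 0.115 CPM. The pooled Cre-positive level, 12.6 CPM from 352 Gh UMIs, was 110-fold that limit. Error in the Cre-positive count is not included, so this ratio is not a lower bound. Median depth was 4309 to 5108 UMIs in Cre-positive mice and 4508 to 5621 UMIs in Cre-negative mice. The Cd4 level was 318 to 363 CPM in Cre-positive mice and 322 to 343 CPM in Cre-negative mice. When each cell was thinned to 2000 UMIs, the Cre-positive share was 2.52% ± 0.542 (SD, n = 3), below the unthinned share of 6.28% ± 1.81.

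**Figure D1:**
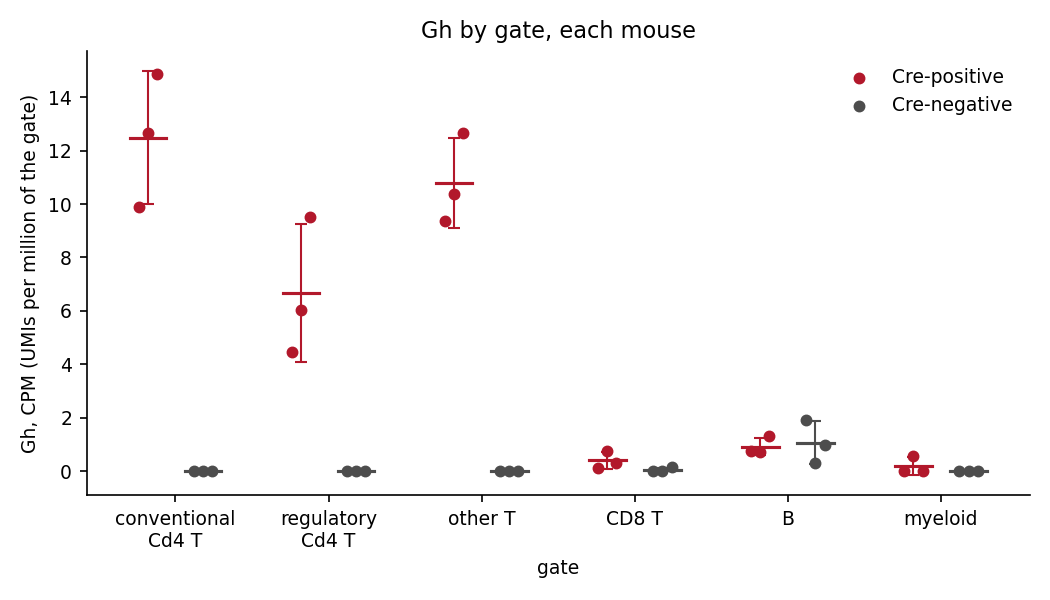
Gh level in CPM (vertical axis) by gate (horizontal axis), with 1 point per mouse, the mean as a horizontal line and the SD as an error bar (n = 3 per genotype). Conventional Cd4 T, regulatory Cd4 T and other T cells of Cre-positive mice stand between 4.46 and 14.9 CPM with every Cre-negative mouse at 0, while B cells of both genotypes overlap.

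T cells with no Cd4 and no Cd8 UMI followed conventional cells, with 9.35, 10.4 and 12.7 CPM in Cre-positive mice 1, 2 and 3, against 0 in all 3 Cre-negative mice. The ranges of these T cells and of conventional Cd4 T cells overlapped in Cre-positive mice. A cell can enter this gate because its Cd4 RNA was missed, or because it is a gamma-delta T cell. Of its cells with a UMI of a gamma-delta receptor constant gene, 0 of 116, 4 of 79 and 5 of 61 had Gh in Cre-positive mice 1, 2 and 3. Of those without, 61 of 1532, 60 of 1290 and 76 of 1311 had it. In mouse 1 the share was lower with such a UMI, 0% (exact 95% interval 0% to 3.13%) against 3.98% without (3.06% to 5.09%). It was higher with such a UMI in mouse 2, 5.06% against 4.65%, and in mouse 3, 8.20% against 5.80%. The direction thus differed between mice, on few cells with such a UMI.

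Regulatory T cells, which restrain immune responses and express Foxp3, held less Gh than conventional Cd4 T cells of the same mice. They had 4.46, 6.05 and 9.51 CPM in Cre-positive mice 1, 2 and 3, from only 3, 4 and 6 UMIs, and 0 in the 3 Cre-negative mice. The regulatory level was below the conventional level in 3 of 3 Cre-positive mice. The log2 fold change of regulatory over conventional cells, from sums with the mouse as a block, was -1.08.

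CD8 T cells also pass through a Cd4-expressing stage but stop transcribing Cd4. They had 1, 7 and 2 Gh UMIs in Cre-positive mice 1, 2 and 3, which is 0.137, 0.779 and 0.312 CPM, against 0, 0 and 1 UMI in Cre-negative mice. In Cre-positive mice 0.266% of CD8 T cells had Gh (10 of 3755, exact interval 0.128% to 0.489%). The share in B cells of the same mice was 0.378% (0.189% to 0.676%). In B cells of Cre-negative mice it was 0.459% (0.210% to 0.870%), so B cells are not a reference free of Gh. Median depths in Cre-positive mice were 5282 to 6173 UMIs in CD8 T cells and 3752 to 4512 UMIs in B cells. In Cre-negative mice 0.0319% of CD8 T cells had Gh (1 of 3138, 0.000807% to 0.177%). That interval overlaps the Cre-positive one, but both pool the mice, and the overlap does not show the shares to be alike. The part of free RNA in these few molecules was not tested. Conventional Cd4 T cells exceeded CD8 T cells in 3 of 3 Cre-positive mice, with a log2 fold change of 4.67, which lay between 4.20 and 5.59 over 8 alternatives.

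Myeloid cells transcribe Cd4 in part, among them dendritic cells, and carry no CD3 complex. They had 378 Cd4 UMIs but 1 Gh UMI over the 3 Cre-positive mice, against 373 Cd4 UMIs and 0 Gh UMIs in Cre-negative mice. That is 2.65 Gh UMIs per 1000 Cd4 UMIs (exact Poisson interval 0.0670 to 14.7) in Cre-positive myeloid cells. Conventional Cd4 T cells of the same mice had 37.5 per 1000 (33.7 to 41.6). Both intervals pool the mice and cover counting error only, and the myeloid value rests on 1 Gh UMI. Conventional cells were gated on a Cd4 UMI and myeloid cells were not, so the denominators of these ratios are not alike.

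By level in Cre-positive mice, conventional Cd4 T cells and other T cells came first and overlapped. Regulatory cells came next, and their highest mouse overlapped the lowest mouse of other T cells. B cells, CD8 T cells and myeloid cells followed, with at most 1.31 CPM in any mouse. The range of CD8 T cells overlapped those of B cells and of myeloid cells, which did not overlap each other.

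Within conventional Cd4 T cells of Cre-positive mice, Gh was found in resting and in activated cells. Cells were called activated-like where at least 0.5 of their state UMIs came from activation genes such as Cd44 and S100a4, and naive-like where at most 0.25 did, the rest coming from naive cell genes such as Ccr7, Lef1 and Igfbp4. Activated-like cells had 5.58, 5.25 and 5.77 CPM in Cre-positive mice 1, 2 and 3, from 4, 3 and 3 UMIs, while naive-like cells had 10.2, 13.7 and 15.7 CPM. All activated-like values lay below all naive-like values. The log2 fold change of activated-like over naive-like cells was -1.44. The states are ranges of a score and not cell types, and over both genotypes 435 of 9732 cells lay within 0.05 of the naive limit and 70 within 0.05 of the activated limit. Cre-positive mouse 1 had the largest activated-like share, 10.1% of the cells with a state, against 5.39% in mouse 2 and 5.29% in mouse 3. It was also the lowest for Gh among naive-like cells alone.

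Among T cells without Cd8 UMIs, the Gh level in CPM showed no steady order over the numbers of Cd4 UMIs. For 0, 1, 2, 3 and at least 4 Cd4 UMIs, Cre-positive mouse 1 had 9.35, 8.19, 10.8, 15.3 and 5.19 CPM. Cre-positive mouse 2 had 10.4, 9.99, 15.3, 16.5 and 9.45 CPM, and mouse 3 had 12.7, 14.7, 13.1, 14.1 and 18.4 CPM. The highest level was at 3 Cd4 UMIs in mice 1 and 2 and at 4 or more in mouse 3. After thinning to 2000 UMIs, the share of cells with Gh was 1.75%, 2.11% and 2.75% at 0 Cd4 UMIs in mice 1, 2 and 3, and 2.23%, 2.59% and 3.14% at 1 Cd4 UMI. It was 2.26%, 2.34% and 3.23% at 2 Cd4 UMIs, and 2.17%, 0% and 2.63% at 3 or more, in 46, 52 and 38 cells. At 1 and at 2 Cd4 UMIs this share lay above that at 0 in each mouse, while at 3 or more the direction differed between mice. Cre-negative mice had 0 Gh UMIs at every Cd4 level.

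**Figure D2:**
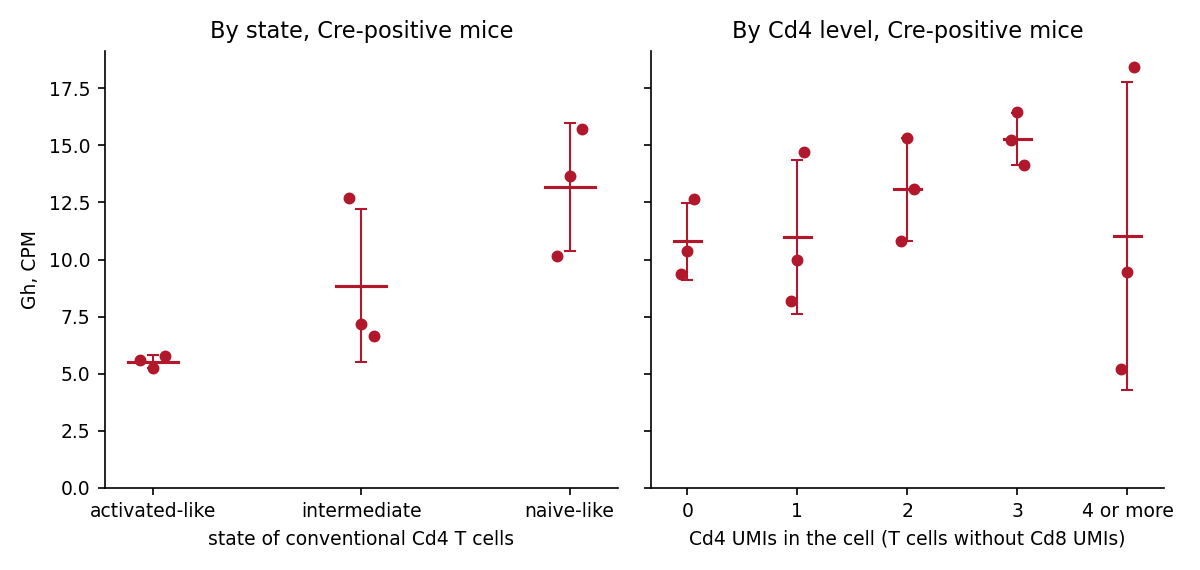
Gh level in CPM (vertical axis, from 0) in the 3 Cre-positive mice, by state of conventional Cd4 T cells (left) and by the number of Cd4 UMIs in T cells without Cd8 UMIs (right). Points are mice, lines means and error bars SDs (n = 3); activated-like cells lie between 5.25 and 5.77 CPM and naive-like cells between 10.2 and 15.7 CPM, and no steady order is seen with Cd4 UMIs.

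Cells with and without Gh were then compared within Cre-positive mice, among all Cd4 T cells, conventional and regulatory. There were 77, 136 and 141 Gh-positive cells in mice 1, 2 and 3, against 1742, 2024 and 1653 Gh-negative cells. The median depth was 4350, 5350 and 5443 UMIs in Gh-positive cells, against 4300, 5031 and 5092 UMIs in Gh-negative cells. Since a mean of 6.13% ± 1.82 (SD, n = 3) of Cd4 T cells were positive and mostly by 1 molecule, the Gh-negative cells also hold cells in which the transcript was missed. A Foxp3 UMI was present in 3.90%, 2.94% and 4.26% of Gh-positive cells, against 7.29%, 5.83% and 5.81% of Gh-negative cells. Naive-like cells made up 79.2%, 91.2% and 87.9% of Gh-positive cells, against 74.5%, 82.7% and 82.9% of Gh-negative cells. Unlike the shares by state above, these are out of all cells, also those with fewer than 3 state UMIs and thus no state. The Foxp3 and naive-like shares each moved the same way in 3 of 3 mice. The part of depth in the naive-like shares was not tested.

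Of 9709 genes tested, 2 were called at an adjusted p under 0.05 (0.0206%), both lower in Gh-positive cells, and 6.54% had an unadjusted p under 0.05. Izumo1r, which encodes folate receptor 4 of regulatory and anergic T cells, had 131, 90.1 and 98.9 CPM in Gh-positive cells of mice 1, 2 and 3, against 219, 157 and 156 CPM in Gh-negative cells. Its log2 fold change was -0.75 (SE 0.103, edgeR quasi-likelihood test with the mouse as a block, Benjamini-Hochberg adjusted p = 1.15e-04). Rgs1, a regulator of G protein signalling induced by activation, had 212, 206 and 144 CPM in Gh-positive cells, against 396, 286 and 204 CPM in Gh-negative cells. Its log2 fold change was -0.61 (SE 0.0852, adjusted p = 1.15e-04). Both were lower in 3 of 3 mice and were called also among conventional cells alone. Without the mouse block, neither was called. Izumo1r also lost its call in cells of 3000 to 7000 UMIs, after thinning to 3000 UMIs and with the gate that left out Cst3. Rgs1 lost its call at a mitochondrial limit of 5%. Thinning also dropped cells under 3000 UMIs and set Gh-positive anew on the thinned counts. This left 44, 79 and 72 Gh-positive cells in mice 1, 2 and 3.

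With antigen receptor segments, predicted models and clone names left out, another 8 genes followed by p. They failed the test, each with an adjusted p of 0.0677. Of these, 7 stood lower in Gh-positive cells of all 3 mice. Tnfrsf4, the costimulatory receptor OX40, averaged 29.4 ± 13.1 CPM in Gh-positive and 67.3 ± 18.9 CPM in Gh-negative cells (SD, n = 3 each). Nr4a1, an immediate early gene of antigen receptor signalling, averaged 32.0 ± 6.71 CPM in Gh-positive and 58.2 ± 2.22 CPM in Gh-negative cells. Igf1r, the receptor of insulin-like growth factor 1, averaged 18.3 ± 7.64 CPM in Gh-positive and 41.0 ± 7.51 CPM in Gh-negative cells. The chemokine gene Ccl5 had a log2 fold change of -1.60, and those of Rilpl2, Tbc1d4 and Bcl2a1b were -0.93, -0.62 and -0.64. Satb1, a chromatin organiser of resting T cells, was the 1 that stood higher, with 705 ± 30.3 CPM in Gh-positive and 586 ± 31.0 CPM in Gh-negative cells.

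**Figure D3:**
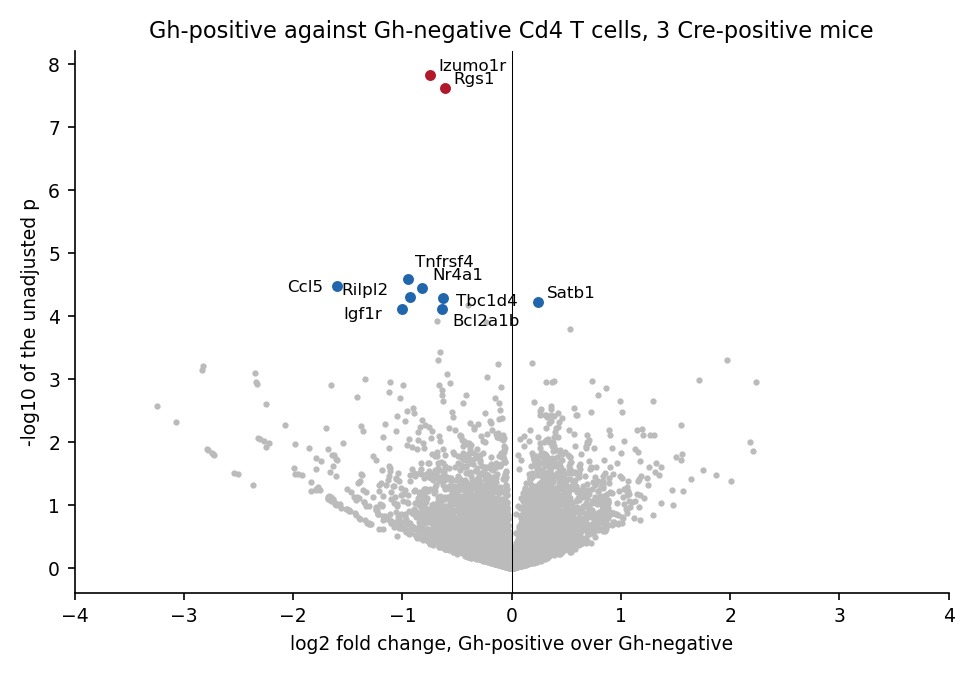
Each of 9709 genes by its log2 fold change of Gh-positive over Gh-negative Cd4 T cells (horizontal axis) and the -log10 of its unadjusted p (vertical axis), from sums per mouse in 3 Cre-positive mice. Red points are the 2 genes that passed, Izumo1r and Rgs1. Blue points are the next 8 with receptor segments, predicted models and clone names left out, at an adjusted p of 0.0677.

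Gene lists are given as counts, beside a median log2 fold change of -0.01 over all genes tested, 48.1% of which stood higher in Gh-positive cells. Of 13 regulatory T cell genes tested, 12 had a fold change below 0, with a median of -0.40, and 1 was called, Izumo1r. Il2ra stood at -0.99 and Ctla4 at -0.35 without passing. Of 20 immediate early genes, 18 lay below 0 (median -0.16) and none was called. Of 16 naive and quiescence genes, 12 lay above 0 (median 0.11) and none was called, with Lef1 at 0.19. Of 21 activation and memory genes, 16 lay below 0 (median -0.07), and again none was called. Counts below 0 were 7 of 12 CD4 lineage genes, 6 of 8 CD8 lineage genes, 11 of 19 interferon response genes and 9 of 14 cell cycle genes, with none called. Of genes that mark other cells or RNA quality, 4 of 9 B cell genes, 4 of 4 myeloid genes and 9 of 17 RNA quality genes lay below 0, with none called. Some of these genes passed under alternatives. With no low-count filter, and likewise with doublets kept, the immediate early genes Fosb, Junb, Nfkbia and Nr4a1 were called, as were Tnfrsf4, Ccl5 and Igf1r. The part of the lower Foxp3 share in these values was not tested beyond the conventional cells alone.

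The growth hormone axis itself was sparsely read in these cells. Of the ligands, the prolactin gene Prl and Igf2 had 0 UMIs in all cells of both genotypes, and the releasing hormone gene Ghrh had 3 UMIs in each genotype. Igf1 had 143 UMIs in Cre-positive and 164 UMIs in Cre-negative cells, and its level in myeloid cells was 20.4 ± 12.8 CPM in Cre-positive and 30.3 ± 4.83 CPM in Cre-negative mice. Of the receptors, Ghr had 32 UMIs in Cre-positive and 21 UMIs in Cre-negative cells. In conventional Cd4 T cells this was 0.440 ± 0.0772 CPM in Cre-positive and 0.341 ± 0.181 CPM in Cre-negative mice (SD, n = 3 each). The releasing hormone receptor Ghrhr had 0 UMIs in both. The signalling genes were well read, with Stat5b at 88.5 ± 5.98 CPM in Cre-positive and 91.0 ± 2.29 CPM in Cre-negative conventional Cd4 T cells.

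Beside Gh itself, no axis gene was called by genotype in Cd4 T cells. In Cd4 T cells, conventional and regulatory together, 1 of 10732 genes was called (0.00932%). It was Gh, which was chosen on this contrast, so its call does not count as a test result. Of the 23 other axis genes tested there, 16 lay higher in Cre-positive mice with a median log2 fold change of 0.06, against 50.3% of all genes higher. The insulin receptor substrate gene Irs2 had 38.3 ± 3.18 CPM in Cre-positive and 48.8 ± 7.53 CPM in Cre-negative mice (SD, n = 3 each; log2 fold change -0.35, edgeR adjusted p = 0.571). The feedback inhibitor Socs3 had 57.6 ± 4.54 CPM in Cre-positive and 49.9 ± 1.19 CPM in Cre-negative mice (0.20, edgeR adjusted p = 0.887). In CD8 T cells 6 of 10097 genes were called (0.0594%) and none of the 22 axis genes tested, of which 11 lay higher. Socs3 was called there with the replicate block and with no low-count filter. In B cells 1 of 9141 genes was called (0.0109%) and none of the 19 axis genes tested, of which 12 lay higher. Between Gh-positive and Gh-negative cells, 15 of 23 axis genes lay below 0, none was called, and the smallest p after Igf1r belonged to Socs1 (-0.57, edgeR adjusted p = 0.31). The transcription factor gene Stat5b had a log2 fold change of -0.01 there.

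Genes of the pituitary, whose cells normally make the hormone, were read rarely. Of 19 such genes, 6 had 0 UMIs over all cells of both genotypes, among them the secretory granule gene Scg2. A further 5 had 1 to 10 UMIs and 8 had more than 10. Pou1f1, which activates Gh in the pituitary, had 63 UMIs in Cre-positive and 40 UMIs in Cre-negative cells. Its level in conventional Cd4 T cells averaged 0.305 CPM in Cre-positive and 0.350 CPM in Cre-negative mice. In other T cells it was 0.518 ± 0.104 CPM in Cre-positive and 0.180 ± 0.165 CPM in Cre-negative mice (SD, n = 3 each). CD8 T cells had 0.648 ± 0.328 CPM in Cre-positive and 0.152 ± 0.00179 CPM in Cre-negative mice. B cells went the other way, with 0.431 ± 0.381 CPM in Cre-positive and 0.838 ± 0.632 CPM in Cre-negative mice. All these levels rest on few UMIs. The summed level of the 19 genes over all cells was 2.91, 3.38 and 3.73 CPM in Cre-positive mice 1, 2 and 3, against 2.81, 2.95 and 2.18 CPM in Cre-negative mice, and these ranges overlap. None of the 19 was read often enough to be tested between Gh-positive and Gh-negative cells.

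None of the genes tested on either side of Gh on chromosome 11 was called between genotypes. Calls were rare over all genes, at 1 of 10732 in Cd4 T cells (0.00932%), which was Gh, so these counts say little about the locus. The next gene on the same strand and upstream of it is Cd79b, which encodes a chain of the B cell receptor, 9475 bases away. On the other side lies Tcam1, 11525 bases away on the opposite strand. In conventional Cd4 T cells Cd79b had 4.06 ± 1.29 CPM in Cre-positive and 4.15 ± 0.905 CPM in Cre-negative mice, and Tcam1 had 0.0434 ± 0.0752 CPM in Cre-positive mice and 0 in Cre-negative mice (SD, n = 3 each). Of the 10 named genes on each side, 17 were tested between genotypes in Cd4 T cells and none was called, with a median log2 fold change of -0.01. The smallest p belonged to Tex2 (5.72 ± 0.773 CPM in Cre-positive and 7.46 ± 0.530 CPM in Cre-negative mice, edgeR adjusted p = 0.963). None of 17 was called between Gh-positive and Gh-negative cells, none of 17 by genotype in CD8 T cells and none of 15 by genotype in B cells. Over all genes the shares called there were 0.0206%, 0.0594% and 0.0109%. In B cells Scn4a, 16726 bases from Gh, had 2.65 ± 0.581 CPM in Cre-positive and 5.64 ± 0.990 CPM in Cre-negative mice. It was not among the genes called.

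**Figure D4:**
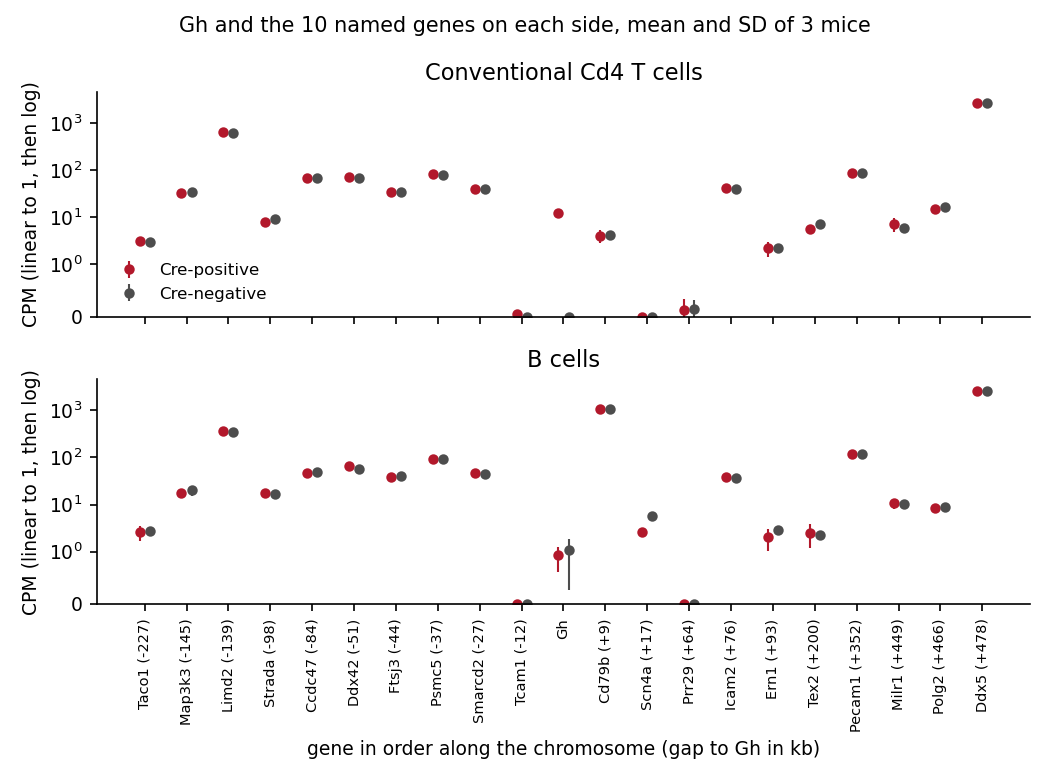
Mean CPM and SD (vertical axis, linear to 1 CPM and logarithmic above) of Gh and the 10 named genes on each side, in order along the chromosome with the gap to Gh in kb, in conventional Cd4 T cells (top) and B cells (bottom), n = 3 mice per genotype. In conventional Cd4 T cells the neighbours overlie each other while Gh stands at 12.5 CPM in Cre-positive mice, against 0 in Cre-negative mice; Cd79b stands near 1063 CPM in B cells of both genotypes.

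B cells of both genotypes gave a second, smaller Gh signal. All cells with a Cd79a UMI and no Cd3 UMI were taken here whatever their myeloid UMIs, a set defined after the values were seen. They had 37 Gh UMIs in 6505 Cre-positive cells and 30 Gh UMIs in 4582 Cre-negative cells. The level was 0.960, 1.72 and 1.03 CPM in Cre-positive mice 1, 2 and 3. In Cre-negative mice it was 1.64, 0.997 and 1.41 CPM. The ranges overlap, which does not show the levels to be alike. Relative to the neighbouring gene, there were 1.11 ± 0.426 Gh UMIs per 1000 Cd79b UMIs in Cre-positive and 1.24 ± 0.369 per 1000 in Cre-negative mice (SD, n = 3 each). Whether any of these molecules began in Cd79b was not tested.

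Within these B-lineage cells, Gh was denser where Jchain, which joins secreted antibodies and marks antibody-secreting cells, was read. This split was also chosen after the values were seen and has no test. Cells with a Jchain UMI had 4.46, 9.19 and 5.05 CPM in Cre-positive mice and 14.0, 7.17 and 12.8 CPM in Cre-negative mice. These values rest on 2 to 6 Gh UMIs per mouse, in 25 to 73 cells. Cells without a Jchain UMI had 0.663, 1.01 and 0.902 CPM in Cre-positive mice and 0.944, 0.657 and 0.935 CPM in Cre-negative mice. The cells with Jchain lay above those without it in all 6 mice, and the genotypes overlap in both. Median depth was 6310 to 9183 UMIs in Cre-positive and 7207 to 11818 UMIs in Cre-negative cells with Jchain, against 3857 to 4620 UMIs in Cre-positive and 4096 to 5136 UMIs in Cre-negative cells without it. After thinning to 2000 UMIs the share of Jchain cells with Gh ranged from 0% to 2.86% in Cre-positive and from 0% to 4.0% in Cre-negative mice, which is too few cells to order.

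**Figure D5:**
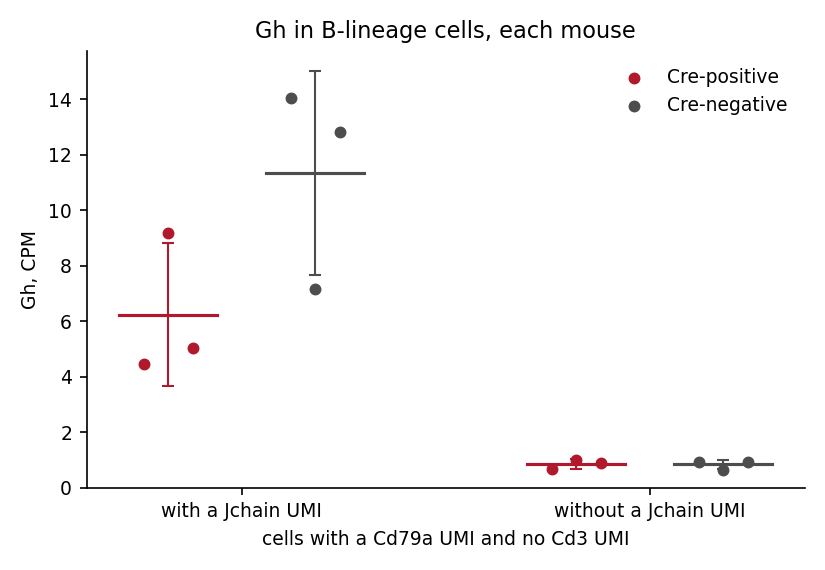
Gh level in CPM (vertical axis, from 0) in cells with a Cd79a UMI and no Cd3 UMI, split by the presence of a Jchain UMI, with 1 point per mouse, the mean as a line and the SD as an error bar (n = 3 per genotype). Cells with Jchain lie between 4.46 and 14.0 CPM and cells without it between 0.657 and 1.01 CPM, with the genotypes overlapping in each.

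Over the 36 sums of 6 mice by 6 gates, the 5 genes most like it among 14870 by Pearson's r of log2(CPM + 1) were Ppid (r = 0.59), Zfp54 (0.58), Ppat (0.57), A730085K08Rik (0.57) and Gm34086 (0.55). The sums of a gate share mouse and depth, so these values are descriptions. Ppid, a peptidyl-prolyl isomerase, had 55.3 ± 2.43 CPM in Cre-positive and 49.0 ± 1.94 CPM in Cre-negative conventional Cd4 T cells (SD, n = 3 each). Ppat, an enzyme of purine synthesis, had 26.1 ± 2.34 CPM in Cre-positive and 20.5 ± 1.73 CPM in Cre-negative conventional Cd4 T cells. Both were read in B and myeloid cells of either genotype as well, where Gh was near 0.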

How the data were processed

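The authors deposited raw UMI counts for every gene and barcode; Cell Ranger 6.1.2 and mm10 are named in the submitters' processing notes. Gene positions came from GENCODE M21. Cells needed at least 500 UMIs and 300 genes, with at most 10% of UMIs mitochondrial. The highest Scrublet scores (scanpy 1.11.5) were removed at 0.8% for each 1000 barcodes, 521 to 942 cells in a library, where Scrublet's own threshold marked 191 to 427. Counts were summed per mouse and gate and tested with edgeR 4.0.16 (quasi-likelihood F test, TMM, filterByExpr, robust dispersions) in R 4.3.3, with Benjamini-Hochberg adjustment over all genes tested at 0.05. Comparisons within a mouse had the mouse as a block. Between gates and states, Gh's own fold changes are descriptions. The SE is the absolute log2 fold change divided by the root of F. CPM values are relative to all UMIs of a sum, without TMM factors. The test and the likeness ranking were checked on simulated data. Alternatives were DESeq2 1.42.0, its size factors, other filters, depth limits, gates, blocks and each mouse left out. Between Gh-positive and Gh-negative cells the 10 genes of smallest p were named, leaving out antigen receptor segments, predicted models and clone names. Up to 4 genes for each list and comparison, neighbours and the 5 most alike genes were also named. Further axis and pituitary genes were named by role after their values were seen. The gene, the gates and the lists were chosen with earlier results of these data known. The floxed gene is not reported here.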

Additional observations from a re-analysis of the deposited data

Results flagged for a closer look

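Gh was also read in barcodes that the cell filters had left out and that entered no comparison. These held 29, 34 and 38 Gh UMIs in Cre-positive mice 1, 2 and 3, against 0, 1 and 1 Gh UMIs in Cre-negative mice, which is above the level of the Cre-negative libraries. Most were barcodes called doublets, 957 of 1435, 930 of 1298 and 788 of 1116 in Cre-positive mice 1, 2 and 3. The level there was 3.55, 4.23 and 4.93 CPM in Cre-positive mice, against 0, 0.160 and 0.134 CPM in Cre-negative mice.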

How the results depend on the processing

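The mean share of Cre-positive Cd4 T cells with a Gh UMI, 6.13%, was 2.42% after thinning to 2000 UMIs, where fewer molecules per cell are read, and 5.26% to 7.08% with 1 mouse left out. The count of genes called between Gh-positive and Gh-negative cells, 2, was 22 with no low-count filter, 18 with doublets kept, 6 at a mitochondrial limit of 5%, 12 with the gate without Cst3 (an alternative chosen after seeing the data), 0 without the replicate block, 1 in cells of 3000 to 7000 UMIs, 19 after thinning to 3000 UMIs, 5 in conventional cells alone, and 2 to 17 with 1 mouse left out, 17 without mouse 3. By genotype in Cd4 T cells the 1 gene called was Gh, which was chosen on this contrast. That count was 14 with no low-count filter, 3 with DESeq2, 4 with the gate without Cst3 and 2 with the replicate block. It was 1 to 10 with 1 mouse left out, 10 without Cre-positive 3. In CD8 T cells the count of 6 was 32 with no low-count filter, 3 with the gate without Cst3, 29 with the replicate block, and 1 to 15 with 1 mouse left out. In B cells the count of 1 was 6 with no low-count filter, 0 at a mitochondrial limit of 5%, 0 with the gate without Cst3, 2 with the replicate block, and 0 to 7 with 1 mouse left out. The cause of these shifts was not tested.

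The log2 fold change of regulatory over conventional cells, -1.08, was -1.09 with DESeq2 and -1.09 without the replicate block, and -1.25 to -0.995 with 1 mouse left out. That of activated-like over naive-like cells, -1.44, was -1.44 with DESeq2, -0.915 with the gate without Cst3, and -1.62 to -1.34 with 1 mouse left out. No result changed direction under any alternative that was run. Between genotypes, same-numbered mice deviated with correlations of -0.05, -0.11 and 0.19. So few values cannot decide whether the numbers pair the mice, and the labels do not say. Regulatory and activated-like cells gave 3 to 6 Gh UMIs per mouse, and this depth limits both comparisons. Regulatory T cells, antibody-secreting cells and myeloid cells were few.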
